A study of Mus musculus with 12 samples.

Results

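Skeletal muscle moves sugar phosphate across the fructose 6-phosphate to fructose 1,6-bisphosphate step in both directions, and the genes of that step are described here in quadriceps muscle of mice given AICAR, GW1516 or both. The list held 9 genes: the fructose bisphosphatases Fbp2 and Fbp1, the bifunctional enzymes Pfkfb1, Pfkfb2, Pfkfb3 and Pfkfb4, and the phosphofructokinases Pfkm, Pfkl and Pfkp. Members were the probe sets, the oligonucleotide groups that each report 1 transcript signal, whose array annotation gave exactly 1 of these symbols. This gave 16 probe sets for 8 genes, out of 18193 genes that the array annotation named alone, and no probe set carried Pfkfb1 alone. The set was chosen from these same data, because Fbp2 was higher with GW1516 and Pfkfb3 was lowest with both drugs, so those values are given as a description and carry no test.

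The mice were C57Bl/6J, and RNA of quadriceps from 3 mice was pooled for each array, with 3 arrays in each of 4 groups and 6 days of treatment in all of them. Mice of the AICAR group received 250 mg/kg/day, those of the GW1516 group 5 mg/kg/day, those of the combination both drugs at these doses, and controls vehicle. AICAR enters cells and becomes an AMP mimic that turns on AMP-activated protein kinase, and GW1516 is a ligand of the nuclear receptor PPARδ. Whether the pools within a group had mice in common is not stated, and p-values here cover only the spread among pools. In whole muscle fewer cells of a type cannot be told apart from less RNA per cell.

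Phosphofructokinase commits sugar to glycolysis by making fructose 1,6-bisphosphate, and fructose bisphosphatase takes the phosphate off again on the route to glucose or glycogen. The bifunctional enzymes make and break fructose 2,6-bisphosphate, a signal molecule that activates phosphofructokinase and inhibits fructose bisphosphatase. The isoform from Pfkfb3 has far more kinase than phosphatase activity, so it mainly makes the signal. Fbp2 encodes the muscle fructose bisphosphatase and Fbp1 the liver and kidney form.

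The tissue label was borne out by its markers: all 9 skeletal muscle markers passed the filter on dim probe sets (those in the lowest 40% by mean log2 signal were left out), and their summed signal was between 212708 and 276349 on every array. It was 227758 to 232777 with AICAR, 212708 to 276349 with GW1516, 248380 to 251955 with the combination and 215654 to 222755 with vehicle. In the deposited scaling both the AICAR and the combination arrays were thus above the vehicle arrays, and the GW1516 arrays overlapped them. Of 10 adipocyte markers 8 passed the filter, and their summed signal was 20156.5 to 36442.6 with AICAR, 16150.6 to 30205.9 with GW1516, 18323.5 to 33324.4 with the combination and 17321.7 to 25633.7 with vehicle, overlapping in every pair of groups. Car3 was the brightest of them, at a median signal of 13676, with Fabp4 next at 6268, and the sums follow these. Whether the Car3 signal came from fat cells or from muscle fibres was not tested, so the sums are a weak measure of fat. The median difference of the 8 from the vehicle mean, on the log2 scale, was -0.04, 0.92 and 1.64 on the AICAR arrays, 0.60, -0.01 and 1.17 on the GW1516 arrays, 1.39, 0.55 and -0.08 on the combination arrays, and 0.42, -0.44 and -0.09 on the vehicle arrays. Fat signal thus varied widely between arrays of a group, and its part in the members' values was not tested. Albumin was the 1 of 6 hepatocyte markers past the filter, at 40.8 to 88.6. On the first principal component, with 13.4% of the variance, combination replicates 2 and 3 stood apart at -48.4 and -55.1, against -14.5 to 30.6 for the other 10 arrays. This component also followed treatment. The AICAR arrays read -14.5, 0.74 and 4.76 and combination replicate 1 read -0.22. The GW1516 arrays read 11.3 to 30.6 and the vehicle arrays 14.6 to 23.8, so every array with AICAR lay below every array without it. Whether the place of combination replicates 2 and 3 came from treatment was not tested. Where a difference of a single member probe set past the filter involves the combination and is printed, it is also given without combination replicates 2 and 3. This leaves 1 combination array, assumed to vary like the other groups.

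The sequence just upstream of the starts of Fbp2 and Pfkfb3 is shown because these are the members past the filter whose mean log2 signals differ most among the groups, and that of Fbp1 because it is the neighbouring gene whose groups overlap. Fbp2 lies at chr13:62836884-62858400 and Fbp1 at chr13:62864753-62888298 in build GRCm38.p6. Both are on the minus strand, with 6352 bases and 0 annotated genes between them. Pfkfb3 lies at chr2:11471430-11554071 on the minus strand, and the RefSeq promoter table for that build gives 2 starts for it. Each sequence below is the 250 bases before a start, 5′ to 3′ on the gene's strand, and capitals mark matches to a searched motif: Fbp2 at chr13:62858401-62858650, Fbp1 at chr13:62888283-62888532, the first Pfkfb3 start at chr2:11553930-11554179 and the other at chr2:11502091-11502340.
Fbp2: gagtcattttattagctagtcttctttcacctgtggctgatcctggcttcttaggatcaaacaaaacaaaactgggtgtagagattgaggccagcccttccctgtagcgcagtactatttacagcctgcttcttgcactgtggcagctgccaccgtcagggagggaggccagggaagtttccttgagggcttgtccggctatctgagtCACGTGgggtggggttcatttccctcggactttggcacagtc
Fbp1: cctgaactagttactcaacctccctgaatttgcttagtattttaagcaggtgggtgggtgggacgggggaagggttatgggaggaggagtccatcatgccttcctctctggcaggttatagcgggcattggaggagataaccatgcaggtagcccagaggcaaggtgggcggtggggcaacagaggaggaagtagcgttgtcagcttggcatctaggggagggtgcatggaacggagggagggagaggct
Pfkfb3 upstream start: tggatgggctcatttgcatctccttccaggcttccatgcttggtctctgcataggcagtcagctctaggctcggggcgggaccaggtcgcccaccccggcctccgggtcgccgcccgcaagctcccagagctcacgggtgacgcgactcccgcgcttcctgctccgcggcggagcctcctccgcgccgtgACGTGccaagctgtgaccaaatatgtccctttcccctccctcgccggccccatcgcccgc
Pfkfb3 downstream start: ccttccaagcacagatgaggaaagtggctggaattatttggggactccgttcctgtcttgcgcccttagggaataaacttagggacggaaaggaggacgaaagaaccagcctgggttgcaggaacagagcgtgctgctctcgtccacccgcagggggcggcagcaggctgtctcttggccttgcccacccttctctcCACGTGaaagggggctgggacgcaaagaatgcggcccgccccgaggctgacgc
The Fbp2 sequence holds the E-box CACGTG, a site read by basic helix-loop-helix factors, with its first base 42 before the start, and the downstream start of Pfkfb3 holds one with its first base 53 before the start. The upstream start of Pfkfb3 holds ACGTG, the core of the hypoxia response element, 60 before the start, and ACGTG is also the inner part of CACGTG. The annotated Pfkfb3 gene reaches 11554071, so the ACGTG at 60 and part of its window lie within the gene. The whole window of the downstream Pfkfb3 start and the bases nearest the Fbp1 start also lie within their annotated genes. Both strands were searched over 32851 windows of the same length: CACGTG was in 6.02% of them and ACGTG in 16.6%. Among 18 windows of the 9 listed genes, CACGTG was in 4 and ACGTG in 7. The PPAR element DR1, which is AGGTCA repeated in the same direction with 1 base between the copies and was present in 0.0335% of windows, and the FOXO site GTAAACA, in 3.17%, had 0 matches in the 18, and AGGTCA, the single nuclear receptor half-site contained in the PPAR element and found in 14.0% of windows, had matches in 2, of Pfkm and Pfkfb1. These are letter matches, with no binding measured.

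Fbp2 signal was high on every array that had received GW1516, with or without AICAR, and low on every array that had not. Signals are linear MAS5 values, the array software's estimate of a probe set's brightness. The Fbp2 probe set read 1241, 1254 and 1094 with AICAR, 2448, 1717 and 2387 with GW1516, 2622, 2982 and 2661 with the combination, and 1228, 1010 and 1096 with vehicle. AICAR and vehicle arrays overlapped, GW1516 arrays lay above both, and combination arrays lay above all others. Group means were 1196 ± 88.6, 2184 ± 406, 2755 ± 198 and 1112 ± 110 in that order of groups (SD, n = 3 arrays each).

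**Figure D1:**
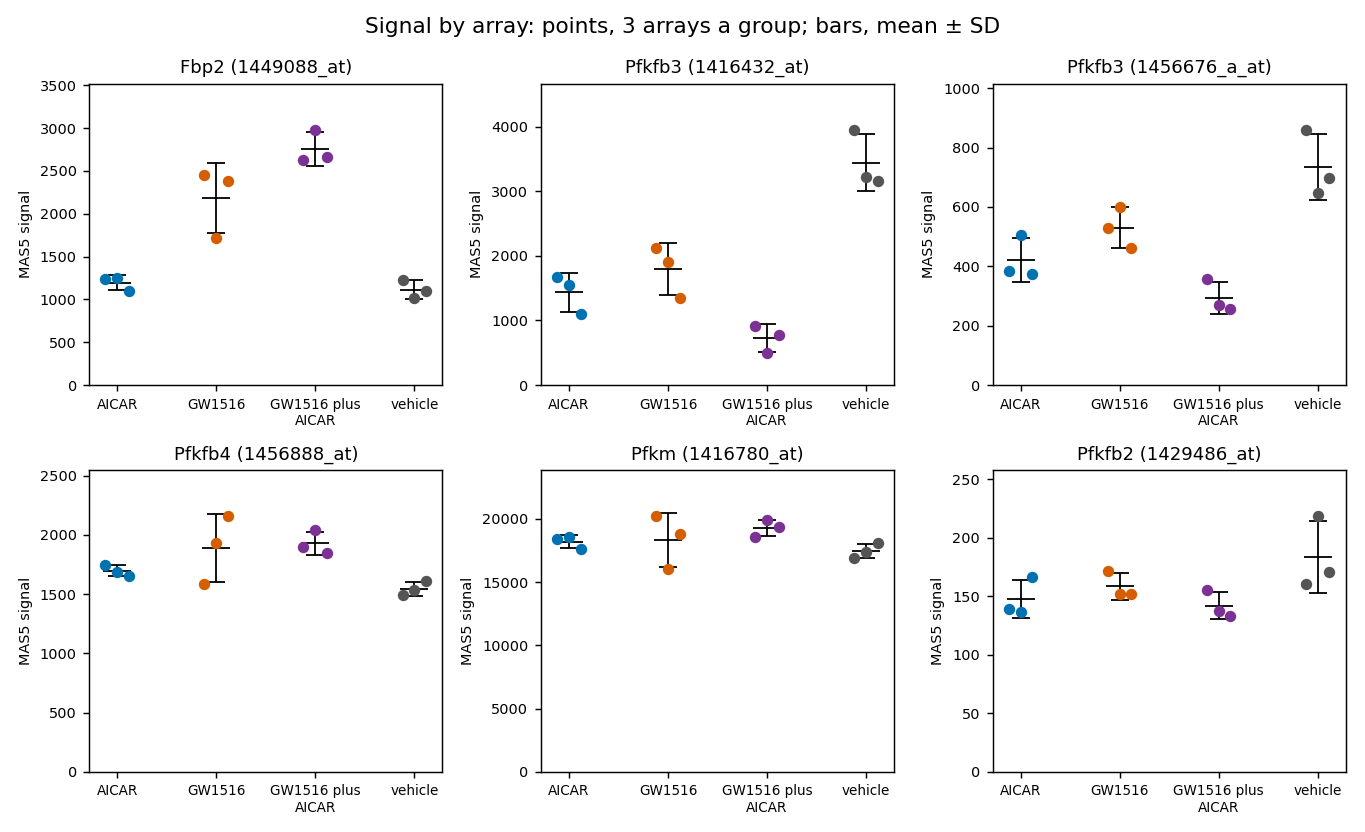
MAS5 signal (linear, y axis from 0) of 6 member probe sets on each array, by group, with points for arrays and bars for mean ± SD of 3 arrays. For Fbp2 the 6 arrays with GW1516 read 1717 to 2982 and the 6 without it 1010 to 1254, and for the brighter Pfkfb3 probe set the combination arrays are lowest, at 492 to 907, and vehicle arrays highest, at 3151 to 3954.

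Fbp2 was picked for being higher with GW1516 over these 4 groups, so its differences are a description with no test. With both drugs it was 1.20 ± 0.13 higher on the log2 scale (difference ± SE of limma's fit) than with AICAR alone, a 2.30-fold difference. Without combination replicates 2 and 3 that difference was 1.13 ± 0.19. With any 1 array left out it was 1.14 to 1.24.

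Fbp2 was 0.96 ± 0.13 higher on the log2 scale with GW1516 than with vehicle (1.95-fold) and 1.31 ± 0.13 higher with the combination than with vehicle (2.48-fold). The lowest of the GW1516 arrays was replicate 2, and without it the difference from vehicle was 1.13. Against vehicle AICAR alone gave 0.11 ± 0.13. The combination was 0.35 ± 0.13 above GW1516 alone, and 0.19 above it without GW1516 replicate 2. The interaction (the effect of GW1516 given with AICAR, less its effect given alone) was 0.24 ± 0.18, its 95% interval of -0.14 to 0.63 spans 0, and without that array it was 0.08. The summed muscle markers were higher with AICAR and with the combination than with vehicle in the deposited scaling. Their median log2 difference from the vehicle mean was 0.18, 0.22 and 0.22 on the 3 combination arrays and 0.08, 0.09 and 0.04 on the AICAR arrays. Median centring moves AICAR minus vehicle by -0.12 and the combination minus vehicle by -0.08. The marker difference with AICAR is thus smaller than a shift from scaling alone. The part of the muscle markers in the Fbp2 difference was not tested. Without combination replicates 2 and 3, Fbp2 differed by 1.24 from vehicle and by 0.28 from GW1516, and its interaction was 0.17 ± 0.23.

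Fbp1 was dim and its groups overlapped throughout. It read 79.0, 50.1 and 43.6 with AICAR, 52.7, 32.5 and 37.8 with GW1516, 78.1, 59.3 and 34.3 with the combination, and 46.9, 38.4 and 33.2 with vehicle. Tests were made with limma over 27022 probe sets, with the Benjamini-Hochberg adjustment over all of them, and a probe set was called at an adjusted p below 0.05. In limma the combination minus AICAR was -0.04 ± 0.38 for Fbp1 (adjusted p = 0.989), with a 95% interval of -0.86 to 0.78. That value was between -0.30 and 0.29 with 1 array left out and 0.49 ± 0.48 without combination replicates 2 and 3, so its sign was not settled. AICAR minus vehicle was 0.51 ± 0.38 (adjusted p = 0.809). RefSeq lists each of the 2 symbols as an older name of the other gene, so the gene number that the array annotation gives each probe set was compared with that of RefSeq, and it was the same for both genes.

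Pfkfb3 ran the other way and differed with each drug: it was highest with vehicle, lower with either drug alone and lowest with both. The brighter of its 2 probe sets, 1416432_at, read 1668, 1551 and 1092 with AICAR, 2122, 1907 and 1342 with GW1516, 907, 492 and 779 with the combination, and 3954, 3226 and 3151 with vehicle. Every combination array lay below every single-drug array, and every single-drug array lay below every vehicle array. Means were 1437 ± 304 with AICAR, 1790 ± 403 with GW1516, 726 ± 213 with the combination and 3444 ± 443 with vehicle (SD, n = 3 arrays each).

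The second Pfkfb3 probe set, 1456676_a_at, gave the same order of groups. It read 384, 506 and 375 with AICAR, 528, 599 and 462 with GW1516, 356, 270.4 and 256 with the combination, and 861, 648 and 699 with vehicle. AICAR and GW1516 arrays overlapped, and the combination and vehicle arrays were apart from both. The 2 probe sets share the same RNA and the same gene, so the second is a repeat reading and not a second test.

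As a description, the log2 difference of the brighter probe set from vehicle was -1.28 ± 0.22 with AICAR (2.42-fold lower), -0.96 ± 0.22 with GW1516 (1.95-fold lower) and -2.29 ± 0.22 with the combination (4.87-fold lower). The other probe set gave -0.81 ± 0.16, -0.47 ± 0.16 and -1.33 ± 0.16 in those comparisons, so its differences were smaller. On the log2 scale the interaction was -0.05 ± 0.31 for the brighter probe set and -0.05 ± 0.23 for the other, with 95% intervals of -0.72 to 0.63 and -0.54 to 0.44. The combination thus departed from the sum of the single-drug differences by less than its error.

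Combination replicates 2 and 3, which stood apart, carried part of the Pfkfb3 difference. Without them the combination minus vehicle was -1.92 ± 0.26 for the brighter probe set, and its combination minus AICAR was -0.64 against -1.01 with all arrays. The interaction of that probe set was then 0.32 ± 0.32, with the sign turned and a size about equal to its error. For the other probe set the combination minus vehicle was -1.04 ± 0.21 without those arrays, its combination minus AICAR was -0.23, against -0.52 with them, and its interaction was 0.24 ± 0.26. Combination replicate 1, which did not stand apart, read 907 on the brighter probe set and was below the lowest single-drug array at 1092.

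The choice of Pfkfb3 did not fix the order of AICAR and GW1516 alone, so that order was tested. AICAR minus GW1516 was -0.31 ± 0.22 in limma for the brighter probe set (adjusted p = 0.688), with a 95% interval of -0.79 to 0.16 and overlapping arrays. It was -0.34 ± 0.16 for the other (adjusted p = 0.566). The order of the drugs was not resolved by 3 arrays each, and 0% of all probe sets were called in that comparison, with 2431 at an unadjusted p under 0.05.

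**Figure D2:**
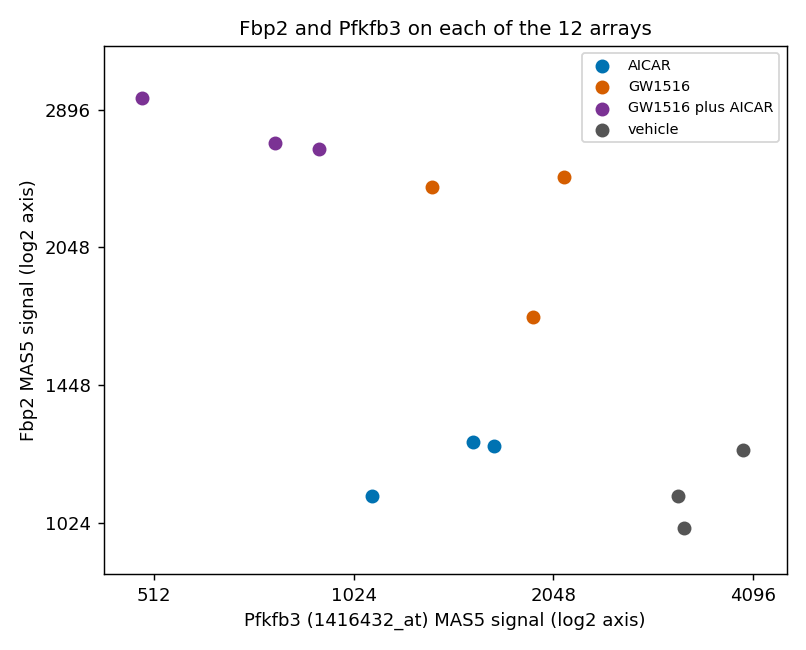
Fbp2 signal (y axis) against Pfkfb3 signal of probe set 1416432_at (x axis) on each of the 12 arrays, both as MAS5 signal on log2 axes, coloured by group. The 4 groups occupy separate areas, with the combination at high Fbp2 and low Pfkfb3, vehicle at the opposite corner, AICAR at the Fbp2 level of vehicle with Pfkfb3 between 1092 and 1668, and GW1516 at 1717 or more in Fbp2 and between 1342 and 2122 in Pfkfb3.

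Seen array by array, Fbp2 separated the GW1516 arrays from the AICAR arrays. On the brighter Pfkfb3 probe set these groups overlapped, at 1342 to 2122 with GW1516 and 1092 to 1668 with AICAR. Both genes were chosen for their differences over these same 4 groups, so the separation is a description. AICAR arrays had vehicle-like Fbp2, between 1094 and 1254, with lower Pfkfb3 than vehicle. GW1516 arrays had both higher Fbp2 and lower Pfkfb3 than vehicle. The comparisons against vehicle share the 3 vehicle arrays, so no correlation between them is given.

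Pfkfb4, another bifunctional enzyme, was slightly higher with each treatment than with vehicle, and no tested difference passed the threshold. Its signals were 1746, 1691 and 1653 with AICAR, 1585, 1929 and 2157 with GW1516, 1901, 2040.4 and 1846 with the combination, and 1489.8, 1531 and 1608 with vehicle. AICAR and combination arrays lay above the vehicle arrays, and GW1516 arrays overlapped them. AICAR minus vehicle was 0.14 ± 0.10 (adjusted p = 0.802) and the combination minus AICAR was 0.18 ± 0.10 (adjusted p = 0.726) in limma. Against vehicle the combination gave 0.32 ± 0.10 and GW1516 gave 0.28 ± 0.10, as descriptions. Without combination replicates 2 and 3, the combination was 0.16 above AICAR and 0.30 above vehicle.

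Pfkfb2, the form first known from heart, had 4 probe sets, of which 2 passed the filter, and these differed in sign only where the combination was compared. Relative to vehicle they gave -0.31 and -0.18 with AICAR and -0.20 and -0.12 with GW1516, the brighter one first. The brighter, 1429486_at, read 139, 137 and 166 with AICAR, 172, 152 and 152 with GW1516, 155, 137 and 133 with the combination, and 161, 218 and 171 with vehicle. Its combination arrays lay below the vehicle arrays, at a difference of -0.36 ± 0.16, which was -0.23 without combination replicates 2 and 3. Its AICAR minus vehicle had an SE of 0.16 in limma (adjusted p = 0.718). The dimmer, 1422092_at, gave 0.36 ± 0.35 for the combination minus vehicle and 0.55 ± 0.35 for the combination minus AICAR in limma (adjusted p = 0.766), or 0.25 and 0.44 without those arrays. Its combination arrays read 48.6, 59.8 and 49.8 and lay above every array of the other groups, which read at most 46.3. Against vehicle the 2 probe sets thus separated the combination in opposite directions. The 2 below the filter, 1422090_a_at and 1422091_at, ranged from 6.95 to 66.0 and from 7.42 to 60.7 over the 12 arrays. Of these, 1422090_a_at read lower on every combination array than on every AICAR array, by a difference of -1.62 ± 0.64 in a limma fit with no filter (adjusted p = 0.728).

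The muscle phosphofructokinase Pfkm was bright and nearly level across the groups. It read 18402, 18594 and 17643 with AICAR, 20201, 16014 and 18771 with GW1516, 18592, 19895 and 19389.9 with the combination, and 16913, 17411 and 18077 with vehicle. The combination arrays lay above the vehicle arrays by 0.14 ± 0.08, a gap that was 0.00 after quantile normalization and 0.09 without combination replicates 2 and 3. The combination minus AICAR was 0.08 ± 0.08 in limma (adjusted p = 0.847), and 0.03 without those arrays. The 95% interval of AICAR minus vehicle, -0.11 to 0.23, leaves room for small differences of signal only in the deposited scaling. Over the alternatives that kept every array or left out both combination arrays, the value was -0.06 to 0.06, so its sign depended on scaling.

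Pfkl, the liver type phosphofructokinase, had 3 probe sets past the filter, and Pfkp, the platelet type, had 1 of 3. Pfkl 1450269_a_at averaged 176 with AICAR, 219 with GW1516, 177 with the combination and 163 with vehicle, and its GW1516 arrays lay above the vehicle arrays by 0.41 ± 0.20. Pfkl 1439148_a_at averaged 204, 192, 196 and 163 in the same order of groups and 1453541_at 49.9, 50.3, 50.9 and 51.1, with overlapping arrays in every pair. Pfkp 1416069_at was spread widely, at 53.0, 61.8 and 98.9 with AICAR, 36.8, 46.2 and 83.6 with GW1516, 17.6, 78.2 and 30.2 with the combination, and 55.1, 86.7 and 43.5 with vehicle. The combination minus AICAR was -0.99 ± 0.50 for it in limma (adjusted p = 0.718), the lowest adjusted p of the other members in that comparison, and its arrays overlapped.

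Of the Pfkp probe sets below the filter, 1437759_at read 72.9, 29.0 and 45.5 with AICAR, 5.09, 14.6 and 18.8 with GW1516, 7.13, 38.2 and 28.2 with the combination, and 7.87, 9.09 and 5.07 with vehicle. Its AICAR arrays lay above the vehicle arrays, by 2.68 ± 0.76 on the log2 scale in a limma fit with no filter (adjusted p = 0.490). Pfkp 1416069_at gave 0.21 ± 0.50 in the same comparison, so the probe sets of this gene differed. The remaining one, 1430634_a_at, read 3.71 to 34.0.

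**Figure D3:**
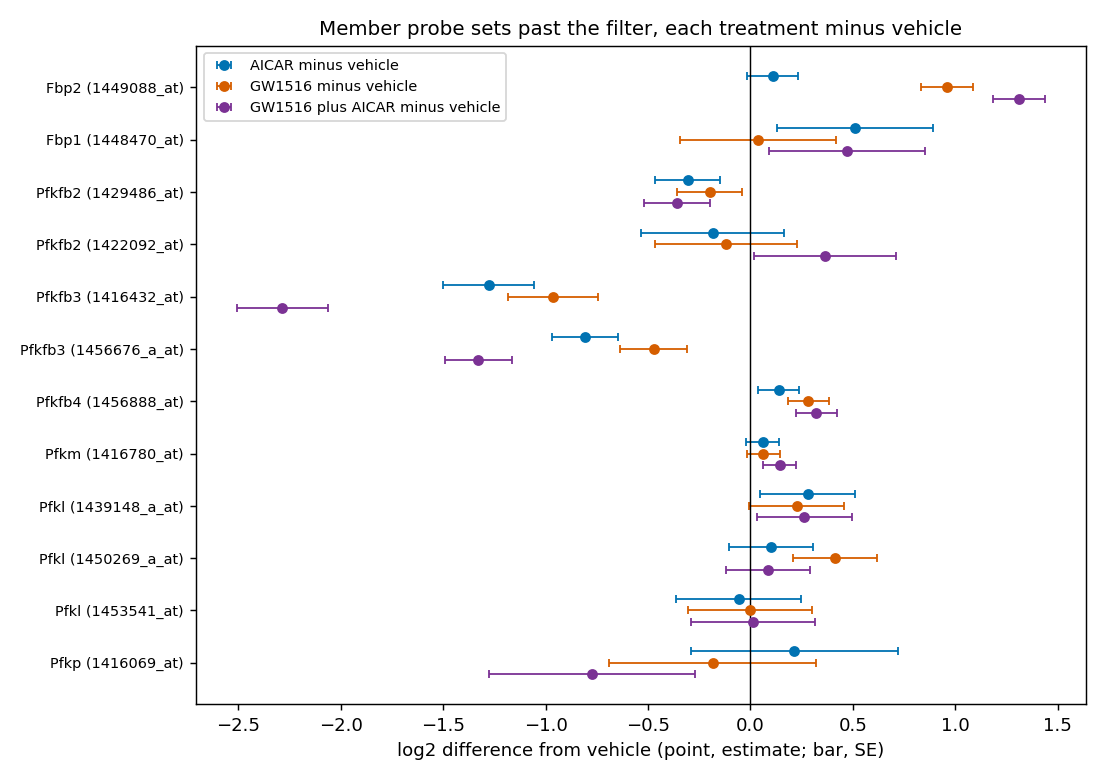
Log2 difference from vehicle (x axis) of the 12 member probe sets past the filter (y axis), with points for AICAR, GW1516 and the combination and bars for the SE of limma's fit. Fbp2 lies at 0.96 and 1.31 with GW1516 and the combination, the Pfkfb3 probe sets lie between -2.29 and -0.47, and the others lie within 1 unit of 0.

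Leaving out Fbp2 and Pfkfb3, the other members had 9 probe sets past the filter, and limma called 0 of them in each of the 5 comparisons in which they were tested. These were AICAR minus vehicle, where 0.0111% of all probe sets were called, the combination minus AICAR (0.00370%), the combination minus GW1516 (0%), AICAR minus GW1516 (0%) and the interaction (0%). The unadjusted p was under 0.05 for 0 of the 9 in every one of them, and the lowest adjusted p was 0.718, 0.718, 0.599, 0.662 and 0.816 in that order. Without combination replicates 2 and 3 the count stayed at 0 of 9 in each, and the combination minus AICAR of Pfkp 1416069_at was -1.96 (limma adjusted p = 0.447). Some untested differences of the combination from vehicle then moved by more than their SE with all arrays. Fbp1 went from 0.47 ± 0.38 to 1.00, Pfkl 1450269_a_at from 0.09 ± 0.20 to 0.54 and Pfkp 1416069_at from -0.77 ± 0.50 to -1.75. Shares of calls this low over the whole array mean that 0 of 9 is near the background and says little about these genes.

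By overlap of arrays, 7 of the 12 member probe sets lay apart between the combination and vehicle, where 18.0% of all probe sets did. In GW1516 minus vehicle the count was 4 of 12 beside 14.0%. The rule picked Fbp2 and Pfkfb3 over all 4 groups, so no count that holds them is free of the choice. In AICAR minus vehicle 3 of 12 lay apart beside 17.4%, in the combination minus AICAR 5 beside 13.7%, in the combination minus GW1516 4 beside 13.3%, and in AICAR minus GW1516 1 beside 14.7%. Fbp2 and both Pfkfb3 probe sets were among those apart in GW1516 minus vehicle and in each comparison that involves the combination. In AICAR minus vehicle both Pfkfb3 probe sets were among them, and in AICAR minus GW1516 the 1 was Fbp2. The counts are therefore a description. The median difference of the 12 was 0.11 for the combination minus vehicle and -0.02 for the combination minus AICAR, beside -0.01 and -0.02 over all probe sets.

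Around this step, 30 other genes of glucose entry, glycolysis and gluconeogenesis were listed, and 21 had a probe set past the filter. Limma called 0 of them, higher or lower, in each of the 7 comparisons, and 1 to 3 had an unadjusted p under 0.05 in each. The lowest adjusted p was 0.268, for Slc2a4, the insulin-responsive glucose transporter, in the combination minus vehicle (0.22 ± 0.07), where 0.292% of all probe sets were called. Hk2, the muscle hexokinase, gave 0.19 ± 0.07 (adjusted p = 0.282) and Aldoa, the aldolase that splits fructose 1,6-bisphosphate, gave 0.19 ± 0.08 (adjusted p = 0.410) in that comparison. Pkm, pyruvate kinase, and Ldha, lactate dehydrogenase, gave 0.06 ± 0.08 and 0.03 ± 0.11.

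In the combination minus AICAR the same glycolysis genes gave small positive values and none passed the test. Hk2 gave 0.09 ± 0.07, Aldoa 0.11 ± 0.08, Pkm 0.11 ± 0.08 and Ldha 0.10 ± 0.11, with limma adjusted p-values of 0.788, 0.798, 0.791 and 0.868. Tigar, whose product breaks down fructose 2,6-bisphosphate, gave 0.39 ± 0.16 with GW1516 relative to vehicle (adjusted p = 0.510). In that comparison 0.0407% of all probe sets were called. Phosphoglucose isomerase, Gpi1, had no probe set of its own symbol here.

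The direction of the pathway genes as a group depended on scaling. In the combination minus vehicle 20 of 21 were above 0 with a median of 0.09, but 12 of 21 were above 0 after quantile normalization (median 0.03) and 11 after median centring (median 0.01). Median centring itself moves that comparison by -0.08, AICAR minus vehicle by -0.12 and AICAR minus GW1516 by -0.15 on the log2 scale. The differences of Fbp2 with GW1516 and of Pfkfb3 with either drug are several times these shifts.

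**Figure D4:**
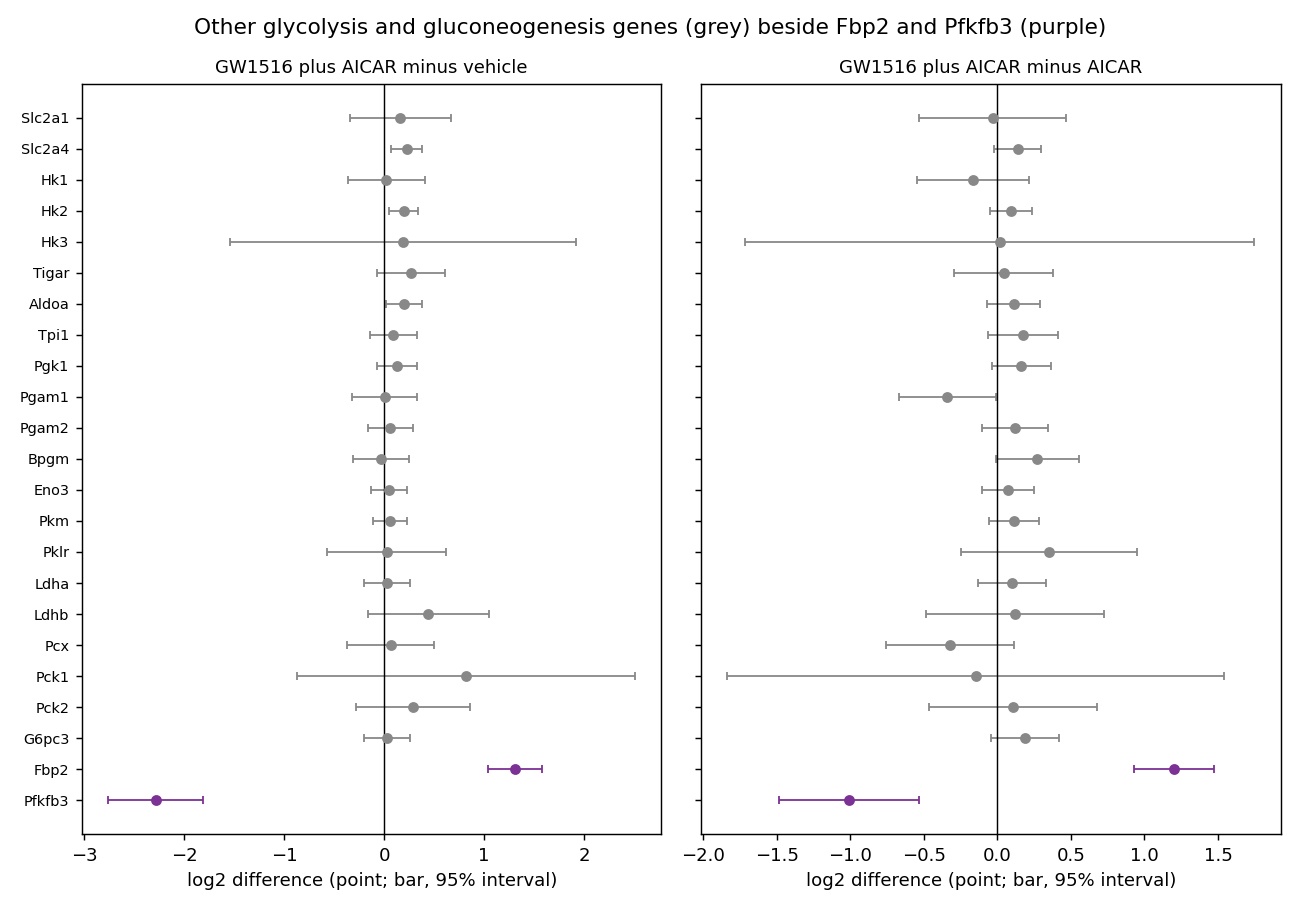
Log2 difference (x axis) with its 95% interval for 21 other glycolysis and gluconeogenesis genes (grey) and for Fbp2 and Pfkfb3 (purple, brighter probe set), in the combination minus vehicle (left) and the combination minus AICAR (right). Fbp2 at 1.31 and 1.20 and Pfkfb3 at -2.29 and -1.01 lie outside the range of the grey points, which runs from -0.03 to 0.82 on the left and from -0.34 to 0.35 on the right. Both genes were picked for their differences over these same groups, so their place outside that range is a description. The intervals of Hk3 and Pck1 are wide and reach past the Fbp2 value in both panels.

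Transcripts of the drug targets and of a known inducer of Pfkfb3 were not called in any of the 7 comparisons, in which 0% to 0.292% of all probe sets were called. Of these 4 genes, limma gave an unadjusted p under 0.05 for 2 in GW1516 minus vehicle, 2 in AICAR minus GW1516 and 1 in the combination minus AICAR, and for 0 in the other comparisons. Ppard, which encodes the receptor of GW1516, gave 0.01 ± 0.16 with AICAR, 0.38 ± 0.16 with GW1516 and 0.04 ± 0.16 with the combination, each relative to vehicle, and the GW1516 value had a limma adjusted p of 0.511. Prkaa2, the catalytic subunit of AMP-activated protein kinase that prevails in muscle, gave -0.03, 0.26 and 0.20 (SE 0.11 each), and Prkaa1, the other catalytic subunit, 0.36, -0.13 and 0.03 (SE 0.49 each). Hif1a, the hypoxia factor that induces Pfkfb3 in many cells, gave 0.16, 0.13 and 0.19 (SE 0.21 each). Kinase activity and receptor binding are not measured by transcript arrays.

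Among 12770 other genes, the signals most like that of Fbp2 over the 12 arrays were those of Smim14 (Pearson r = 0.954), Capn10 (0.905), Slc25a20 (0.896), Cdk5rap3 (0.896) and Uba7 (0.896). Slc25a20, the carnitine-acylcarnitine carrier of the inner mitochondrial membrane, gave -0.07 with AICAR, 0.56 with GW1516 and 0.76 with the combination, each relative to vehicle. Capn10, a calpain protease, gave 0.06, 0.53 and 0.80, and Smim14 gave 0.06, 0.25 and 0.31. All 3 were thus lower in amplitude than Fbp2 on the log2 scale.

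Most like Pfkfb3 were Dhx36 (r = 0.930), Wdr77 (0.912), Sh3bp5 (0.911), Bhlhe40 (0.908) and Peg3 (0.899). Dhx36, a helicase that unwinds G-quadruplexes, gave -0.50 with AICAR, -0.34 with GW1516 and -0.98 with the combination relative to vehicle. Bhlhe40, the clock repressor DEC1, gave -0.53, -0.35 and -0.81. These genes were picked as the nearest of 12770 on 12 arrays that fall into 4 groups, and r is given as a description with no p.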

How the data were processed

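RNA from quadriceps of C57Bl/6J mice, pooled from 3 animals per array per the labels, was hybridised to 12 Affymetrix mouse arrays. The deposited intensity values are linear MAS5 signals, per the submitters' processing notes, with 1 value per probe set and a trimmed mean of 200.001 on every array. For the MAS5 version and any genome build used in the deposited processing, the sources used here give nothing. Of 45101 probe sets, 64 controls were left out. Signals below 1 were set to 1 (3531 of 540444 values), log2 values were computed from the deposited signals, and the 40% of probe sets with the lowest mean were left out, which kept 27022 (mean signal above 28.2). In the array annotation 34945 probe sets carried 1 symbol, 932 several and 9160 none.

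All 27022 probe sets were fitted in R 4.3.3 with limma 3.58.1 (group means over all 12 arrays, empirical Bayes with a mean-variance trend, 8 residual and 6.04 prior degrees of freedom). Tests were two-sided with the Benjamini-Hochberg adjustment over all of them, and a probe set was called at an adjusted p below 0.05. Differences carry the fit's standard error, and intervals are at 95%. A pairwise difference had a median standard error of 0.23, correlations between arrays were 0.936 to 0.960, and median signals were 45.4 to 54.2. The number of arrays limits the precision.

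Members, lists, naming rule and tests were chosen with earlier results of these data known. Named were every member probe set, 5 fixed pathway genes (Hk2, Gpi1, Aldoa, Pkm and Ldha) with any called, 4 regulators, and the 5 genes of highest Pearson correlation with Fbp2 and with Pfkfb3. Other pathway genes are named for having the lowest p or a role at this step, after their values were seen. Members carry no test in GW1516 or combination minus vehicle, which chose them. A test of Fbp2 in the combination minus AICAR was planned and is not given, because the choice of Fbp2 used the combination arrays too. Pfkfb3 was tested only in AICAR minus GW1516. Pathway genes and markers were represented by their brightest probe set past the filter. The replicate numbers did not pair arrays: same-numbered arrays correlated at -0.0867 to 0.0530 in their deviations from group means, and differently numbered ones at -0.0653 to 0.0743. Tried in turn were median centring, quantile normalization, no filter, a filter of 60%, a pseudocount of 32, 1 probe set per gene, no trend, only the groups compared, the replicate number as a term, each array left out in turn and, chosen after seeing the data, both combination arrays that stood apart left out. The code was tested on simulated data with known changes. Promoter sequences are from RefSeq tables of GRCm38.p6, and plots were made in Python 3.11.15 with matplotlib 3.10.9.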

Additional observations from a re-analysis of the deposited data

How the results depend on the processing

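The planned test of Fbp2 in the combination minus AICAR is not read as one, and its value is a description: it was 1.13 to 1.24 on the log2 scale over all alternatives. It was 1.14 to 1.24 with 1 array left out in turn. Without the trend on mean signal it was 1.20, with an SE of 0.15, and without both combination arrays that stood apart it was 1.13. Leaving out AICAR replicate 3 gave 1.14 and leaving out combination replicate 2 gave 1.15. With the replicate number as a block, the difference was 1.20, and for Pfkfb3 AICAR minus GW1516 was -0.31 (adjusted p = 0.626). The block changed no call of a member or pathway gene. Pfkfb3 in AICAR minus GW1516 was -0.51 to -0.13 with 1 array left out and was called in no alternative (lowest adjusted p 0.345).

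The count of 0 called held for the other members and for the pathway genes in every alternative. Of 1736 values of member probe sets under an alternative, 100 had another sign than the reported value. The count that moved by more than the spread between replicates was 12. Of these, 11 came from leaving out both combination arrays and 1 was Pfkm after quantile normalization. Leaving those arrays out shifted Pfkfb3 in the combination minus AICAR by more than the SE of that difference. Its brighter probe set went from -1.01 ± 0.22 to -0.64, and the other from -0.52 ± 0.16 to -0.23. Over all probe sets the calls varied widely. The combination minus vehicle gave 79 as reported, 46 with no filter, 0 with no trend and 45 with the replicate block. The combination minus AICAR gave 1 as fitted here, 0 with no trend and 6 with a pseudocount of 32. That 1 was Fbp2, which was chosen on these same arrays, so the call is no support for it. Over the alternatives the calls ranged from 0 to 34 in AICAR minus vehicle (3 reported), 0 to 50 in GW1516 minus vehicle (11 reported), 0 to 209 in the combination minus vehicle, 0 to 14 in the combination minus GW1516 (0 reported), 0 to 28 in AICAR minus GW1516 (0 reported, 28 after median centring) and 0 to 1 in the interaction (0 reported). The interaction could not be refitted with only the groups compared, since it needs all 4. Fbp2, Pfkfb3, Pfkfb4 and Pfkm are bright, while Fbp1, Pfkp and the dimmer Pfkfb2 and Pfkl probe sets had errors up to 0.50 and only large differences could be resolved there.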
